A study of Mus musculus with 6 samples.

Results

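The genes described here make, break down or sense prostaglandins: Pla2g4a, Ptgs1, Ptgs2, Ptges, Ptgis, Hpgd and the receptor genes Ptger1 to Ptger4. They are a fixed list of 10 genes, chosen with earlier results of these data known. A gene was measured where a probe set carried its symbol and no other. By that rule 8 of the 10 were measured, each by 1 probe set, among 22180 genes in all, and Ptgs1 and Ptger1 were not analysed here. The cells were prostate epithelial cancer cells from Rb1F/F:Trp53F/F:PB-Cre4 mice, in which a Cre recombinase under a prostate-specific probasin promoter deletes both tumour suppressor genes. They carried an empty-vector lentivirus (EV, 3 arrays) or a PIM1 lentivirus (PIM1, 3 arrays), so both groups share the deletions and a viral infection. Both also shared a medium with 2.5% charcoal-stripped serum, insulin, transferrin and selenium, pituitary extract, epidermal growth factor and cholera toxin, an agent that raises cyclic AMP by locking the G protein Gs in its active state. The labels give no age of the mice and name no separate cultures or transductions, so each p-value reflects the spread among these arrays alone, and that spread may be technical.

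Prostaglandins are short-range lipid messengers. A cytosolic phospholipase A2 (Pla2g4a) frees arachidonic acid from membranes, the cyclooxygenases (Ptgs1, mostly constitutive, and Ptgs2, inducible by growth factors and inflammatory signals) turn it into prostaglandin H, and terminal synthases turn that into prostaglandin E (Ptges) or prostacyclin (Ptgis). A transporter carries prostaglandins back into cells, where the dehydrogenase encoded by Hpgd and a reductase inactivate them. Prostaglandin E acts through the receptors of the Ptger genes, of which those of Ptger2 and Ptger4 raise cyclic AMP through Gs and that of Ptger3 mainly lowers it.

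In these cells Ptgs2 was bright on all 6 arrays and differed by 0.05 between PIM1 and EV on the log2 scale. Ptges was the 1 member that passed the test, with a rise of 0.34 on the log2 scale (1.27-fold), and the other 7 members did not pass. Larger differences lay among prostanoid genes outside the list of members, in the uptake transporter gene Slco2a1 (1.94), the prostaglandin F receptor gene Ptgfr (2.89) and the reductase gene Akr1c18 (3.53), all higher in PIM1.

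The sequences upstream of Ptgs2 and Ptges are shown because Ptgs2 is the brightly measured member whose level hardly differed and Ptges the member that was called. Each is the 250 bases before the start site in RefSeq on GRCm38.p6, read 5′ to 3′ on the gene's strand, with matches to the C/EBP-type motif TTNNGNAA on either strand in capitals. That of Ptgs2 is chr1:150099781-150100030 on the plus strand, and that of Ptges is chr2:30903298-30903547 on the minus strand.
Ptgs2: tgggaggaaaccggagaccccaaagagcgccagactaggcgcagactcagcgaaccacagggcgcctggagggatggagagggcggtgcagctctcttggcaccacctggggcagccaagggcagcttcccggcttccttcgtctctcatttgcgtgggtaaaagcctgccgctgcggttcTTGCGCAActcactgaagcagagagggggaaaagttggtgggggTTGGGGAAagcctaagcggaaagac
Ptges: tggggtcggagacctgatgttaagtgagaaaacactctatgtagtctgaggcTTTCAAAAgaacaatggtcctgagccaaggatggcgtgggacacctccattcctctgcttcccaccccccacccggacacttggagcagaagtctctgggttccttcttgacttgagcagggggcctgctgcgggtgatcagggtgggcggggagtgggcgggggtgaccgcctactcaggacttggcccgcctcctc

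RefSeq windows of 300 bases, from 250 before to 50 after a start site, were found for 8 of the 10 listed genes, without Ptgis and Ptger1. The C/EBP-type motif lay at 2 places in the Ptgs2 window, from -69 to -62 and from -25 to -18 of the start site as RefSeq places it, and at 1 place in the Ptges window, from -198 to -191. It occurred in 40.7% of all 32851 windows, so such a match is common. The Ptgs2 window also held the E-box CACGTG from 17 to 22, counting the start site as 1 (7.15% of all windows) and, overlapping it by 2 bases, the shorter CRE-type site TGACG read on the minus strand from 14 to 18 (20.8% of all windows). No listed gene's window held the NF-kappaB-type motif (GGG, any pair of bases, TTTCC; 1.63% of all windows), the full CRE-type TGACGTCA (1.79%), the AP-1-type TGANTCA (7.81%) or the STAT-type TTCNNNGAA (8.30%). TATAAA (13.6% of all windows) lay in the Hpgd window and in 1 of the 2 Pla2g4a windows. These matches describe the letters of the windows and were tested against no measurement.

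Values are log2 signals of a whole-transcript mouse array, differences are PIM1 minus EV, and a gene was called where limma's p, adjusted by Benjamini-Hochberg over all genes, was under 0.05. Pim1 itself gave EV signals of 5.26, 6.25 and 5.23 and PIM1 signals of 7.11, 6.89 and 6.97, and the labels do not say whether its probes lie on the introduced sequence. A dim second Pim1 probe set read 2.05, 2.27 and 2.64 in EV and 3.06, 3.32 and 2.61 in PIM1. Its groups overlapped, with a difference of 0.68 (limma adjusted p = 0.0462 in the fit over all probe sets). Arrays of 1 group correlated at 0.990 to 0.996 over the genes, whereas EV and PIM1 arrays correlated at 0.963 to 0.967. The median of all probe sets was 3.49 to 3.52 on the EV arrays and 3.38 to 3.42 on the PIM1 arrays, and no detection call was used, so signals near or below these medians hold an unknown share of background. Markers of the labelled cell type were partly dim: Krt18 of simple epithelium read 9.09 to 9.21 in EV and 4.79 to 5.02 in PIM1, whereas Epcam read 2.28 to 2.51 on all arrays. Of 10 luminal or simple epithelial markers 2 were higher in PIM1 (Cd24a and Hoxb13) and 3 lower (Krt18, Krt19 and Cdh1). Krt8 averaged 4.73 in EV and 4.65 in PIM1 and was not called. Of 10 basal markers 0 were higher and 3 lower (0 and 5 at an unadjusted limma p under 0.05). Of 12 fibroblast markers 9 were higher in PIM1 and 1 lower, and their summed signal on a log2 scale was 12.40 to 12.46 in EV and 13.60 to 13.63 in PIM1. Among them Dcn read 4.77 to 4.95 in EV and 10.18 to 10.49 in PIM1. Pdgfra read 5.91 to 6.45 in EV and 10.84 to 11.05 in PIM1. Others were already bright in EV: Col3a1 averaged 9.96 in EV and 11.14 in PIM1, and Col1a1 8.94 and 9.96. Vim averaged 11.59 and 11.87 and was not called, and Fap, the 1 lower, averaged 2.18 and 1.71. Lum, although called higher, was dim on all arrays (1.59 to 2.31), and Thy1 read 3.59 to 3.86. In bulk RNA more cells of a type and more RNA per cell cannot be told apart.

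Release of arachidonic acid was represented by Pla2g4a, the calcium-dependent cytosolic phospholipase. Pla2g4a had a signal of 3.02, 3.06 and 3.12 in EV cells and of 2.85, 2.95 and 2.55 in PIM1 cells. All 3 PIM1 values lay below the EV values, and all 6 lay below the median of the array. The difference of -0.28 (95% interval -0.57 to 0.0016, limma adjusted p = 0.133) did not pass.

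Ptgs2, the inducible cyclooxygenase gene, gave EV signals of 9.84, 9.86 and 9.90 and PIM1 signals of 9.88, 9.90 and 9.97. The groups overlapped, and every array was far above its median. The means were 9.86 ± 0.030 (SD, n = 3) and 9.92 ± 0.047, and the difference was 0.05 (95% interval -0.16 to 0.26, limma adjusted p = 0.712). As a ratio of PIM1 to EV that interval runs from 0.897 to 1.20. It was the narrowest interval of the 8 members, whose standard errors ran from 0.0914 for Ptgs2 to 0.193 for Ptger2.

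Ptges encodes the membrane-bound, inducible prostaglandin E synthase, which commonly works with the Ptgs2 product. It had a signal of 3.74, 3.72 and 3.78 in EV cells and of 4.10, 3.96 and 4.22 in PIM1 cells. The groups did not overlap, and both lay close to the array medians. The rise of 0.34 (standard error 0.103, 95% interval 0.11 to 0.58, limma adjusted p = 0.0410) passed narrowly. It did not pass when any 1 of the 6 arrays was left out (adjusted p from 0.0508 to 0.117) or with a trended, robust variance (0.0879).

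Ptgis, the prostacyclin synthase gene, gave EV signals of 3.65, 3.61 and 3.55 and PIM1 signals of 3.43, 3.43 and 3.54. The PIM1 values lay below the EV values by a small margin, and the difference of -0.14 (95% interval -0.35 to 0.08, limma adjusted p = 0.331) did not pass.

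Hpgd, whose dehydrogenase starts the breakdown of prostaglandin E, lay far below the array medians on all arrays. It had a signal of 1.97, 2.51 and 2.36 in EV cells and of 2.44, 2.28 and 1.93 in PIM1 cells. The groups overlapped, and the difference was -0.06 (95% interval -0.47 to 0.35, limma adjusted p = 0.839). At such a signal a fall could hardly be seen.

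Among the receptors, Ptger4 and Ptger2, both coupled to Gs, had the largest differences of all members, and neither passed. Ptger4 gave EV signals of 4.79, 5.15 and 4.72 and PIM1 signals of 5.32, 5.13 and 5.41. EV replicate 2 lay among the PIM1 values, and the other EV arrays lay below them. The difference of 0.40 (95% interval 0.08 to 0.72, limma adjusted p = 0.0705) passed without EV replicate 2 (0.53, adjusted p = 0.0207), after median centring of the arrays (0.50, adjusted p = 0.0331) and when the brighter 11090 genes were tested alone (adjusted p = 0.0335). In the other 11 of 14 processing alternatives it did not pass. Among those it was 0.32 after quantile normalization (limma adjusted p = 0.141) and 0.33 after cyclic loess (0.125).

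Ptger2 had a signal of 2.85, 2.68 and 3.36 in EV cells and of 3.24, 3.38 and 3.70 in PIM1 cells. EV replicate 3 lay within the PIM1 range. The difference of 0.48 (95% interval 0.03 to 0.92, limma adjusted p = 0.108) passed without EV replicate 3 (0.67, adjusted p = 0.0200). It also passed with the replicate number as a block (adjusted p = 0.0339), and in the other 11 of 13 processing alternatives it did not. Ptger3, whose receptor couples mainly to Gi, gave EV signals of 2.93, 2.39 and 3.18 and PIM1 signals of 2.78, 2.79 and 2.94. The PIM1 values lay inside the EV range, and the difference was 0.0024 (95% interval -0.44 to 0.44, limma adjusted p = 0.994).

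**Figure D1:**
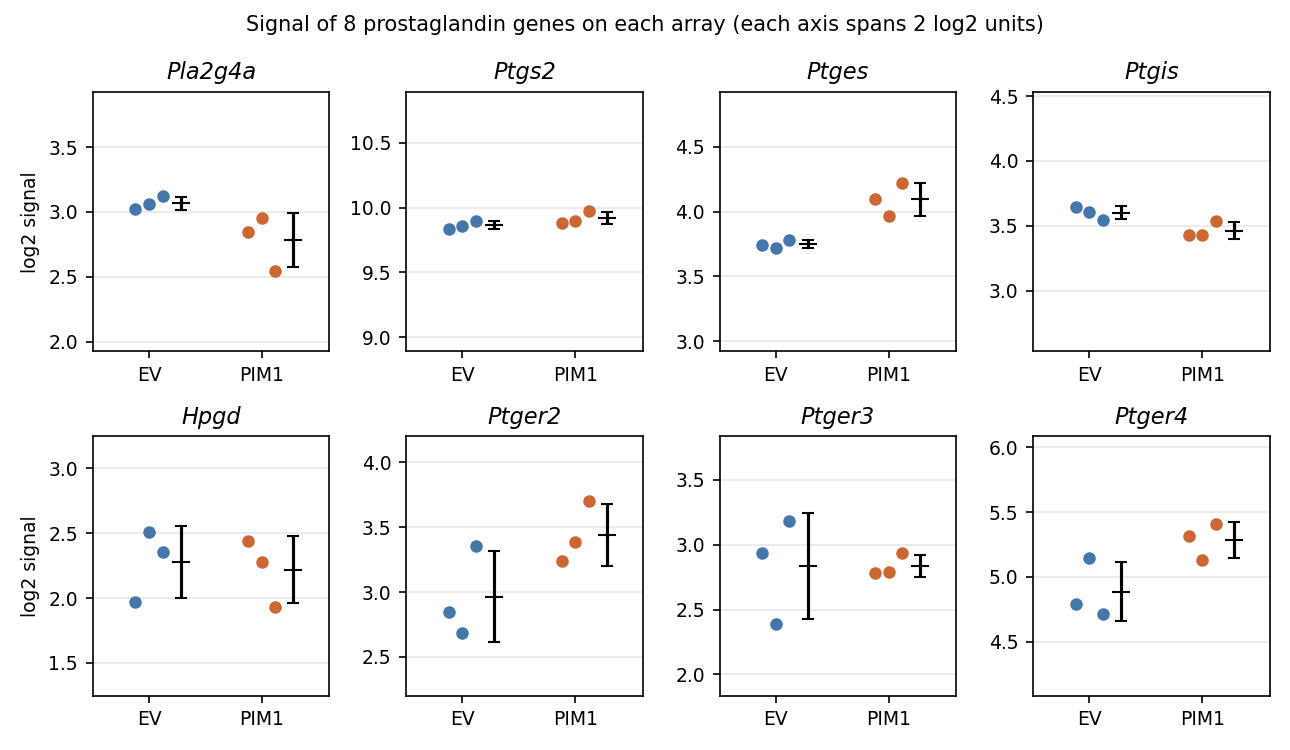
Log2 signal of the 8 measured members on each array, with EV in blue, PIM1 in orange and the mean ± SD of 3 arrays as black bars; each panel spans 2 log2 units around its own centre. Ptgs2 sits between 9.84 and 9.97 on all 6 arrays, and in the Ptges panel every PIM1 array lies above every EV array.

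Counted together, 1 of the 8 measured members (12.5%) was called, against 27.0% of all genes tested. The member called was higher in PIM1, as 16.1% of all genes were, and 0 members were lower, against 10.9% of all genes. At an unadjusted limma p under 0.05 the members counted 3 higher (Ptges, Ptger4 and Ptger2) and 0 lower, where 20.1% of all genes were higher and 18.0% lower. The groups did not overlap for 3 of the 8 (37.5%), against 43.2% of all genes. The members' median difference was 0.03, and that of all genes was -0.05. The differences of the members ran from -0.28 to 0.48 on the log2 scale.

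The other prostanoid enzymes included larger differences. The counts of the lists that follow stand against 16.1% of all genes higher and 10.9% lower. Of 9 measured synthases and carbonyl reductases, 3 rose and 0 fell (3 and 0 also at an unadjusted limma p under 0.05), with a median difference of -0.12. Akr1c18, an aldo-keto reductase that inactivates progesterone and belongs to the family of the prostaglandin F synthases, had a signal of 2.96, 2.98 and 2.93 in EV cells and of 6.44, 6.34 and 6.69 in PIM1 cells. It rose from a dim signal to one far above the array medians, by 3.53 (standard error 0.117, limma adjusted p = 6.21e-07). Ptges2, a prostaglandin E synthase that is not the inducible form, rose by 0.75 from 5.49 ± 0.077 to 6.25 ± 0.12 (limma adjusted p = 0.00126). Cbr3, a carbonyl reductase, rose by 0.75 from 2.50 ± 0.14 to 3.25 ± 0.25, a low signal. The synthase genes of prostaglandin D (Ptgds, -0.25, and Hpgds, -0.12) and of thromboxane (Tbxas1, -0.18) did not pass.

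Most genes rose in the list of prostanoid transporters and of reductases that act after the Hpgd enzyme. Hpgd itself was dim on all arrays and was not called. Of 6 transporters and reductases, 4 rose and 0 fell (also at an unadjusted limma p under 0.05), with a median difference of 0.99. Slco2a1, the prostaglandin transporter that brings prostaglandins into cells for inactivation, gave EV signals of 8.34, 8.32 and 8.33 and PIM1 signals of 10.26, 10.19 and 10.38. The groups lay far apart, and the rise of 1.94 (standard error 0.0966, limma adjusted p = 4.87e-06) was 3.85-fold. Ptgr2 and Ptgr1, reductases that act on the keto-prostaglandins left by the Hpgd enzyme, rose by 1.37 and 0.91, and the transporter gene Slco3a1 rose by 1.06. Abcc4, an exporter of prostaglandin E and cyclic nucleotides, read 6.20 to 6.36 in EV and 6.14 to 6.39 in PIM1, a difference of -0.02 (adjusted p = 0.898).

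A list of 5 genes held 4 receptors for the other prostanoids and Ptgfrn, which encodes a negative regulator of the prostaglandin F receptor. Of the 5, 2 rose and 0 fell (2 and 1 at an unadjusted limma p under 0.05), with a median difference of -0.08, which is the value of Ptgfrn. Over the 4 receptors alone, counted after the values were seen, the median difference was 0.15. Ptgfr, the prostaglandin F receptor gene, had a signal of 5.74, 5.61 and 5.58 in EV cells and of 8.43, 8.52 and 8.64 in PIM1 cells. The groups did not overlap, and the rise of 2.89 (standard error 0.105, limma adjusted p = 1.11e-06) was 7.39-fold. Ptgir, the prostacyclin receptor gene, rose by 0.70 from 4.24 ± 0.25 to 4.94 ± 0.11 (limma adjusted p = 0.00804). Ptgdr, a prostaglandin D receptor gene, differed by -0.39 (limma adjusted p = 0.0690). Of 13 processing alternatives it passed in 1, without EV replicate 1 (adjusted p = 0.0372). A second probe set of it differed by -0.31 and did not pass. Fibroblasts and smooth muscle can express such receptors. The summed signal of the fibroblast markers, given above, was higher on the same arrays as the enzyme, transporter and receptor genes that rose. Of 10 smooth muscle markers 2 were higher and 3 lower. Their summed signal on a log2 scale was 10.03 to 10.15 in EV and 9.64 to 9.68 in PIM1. The part of either cell type in these differences was not tested.

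**Figure D2:**
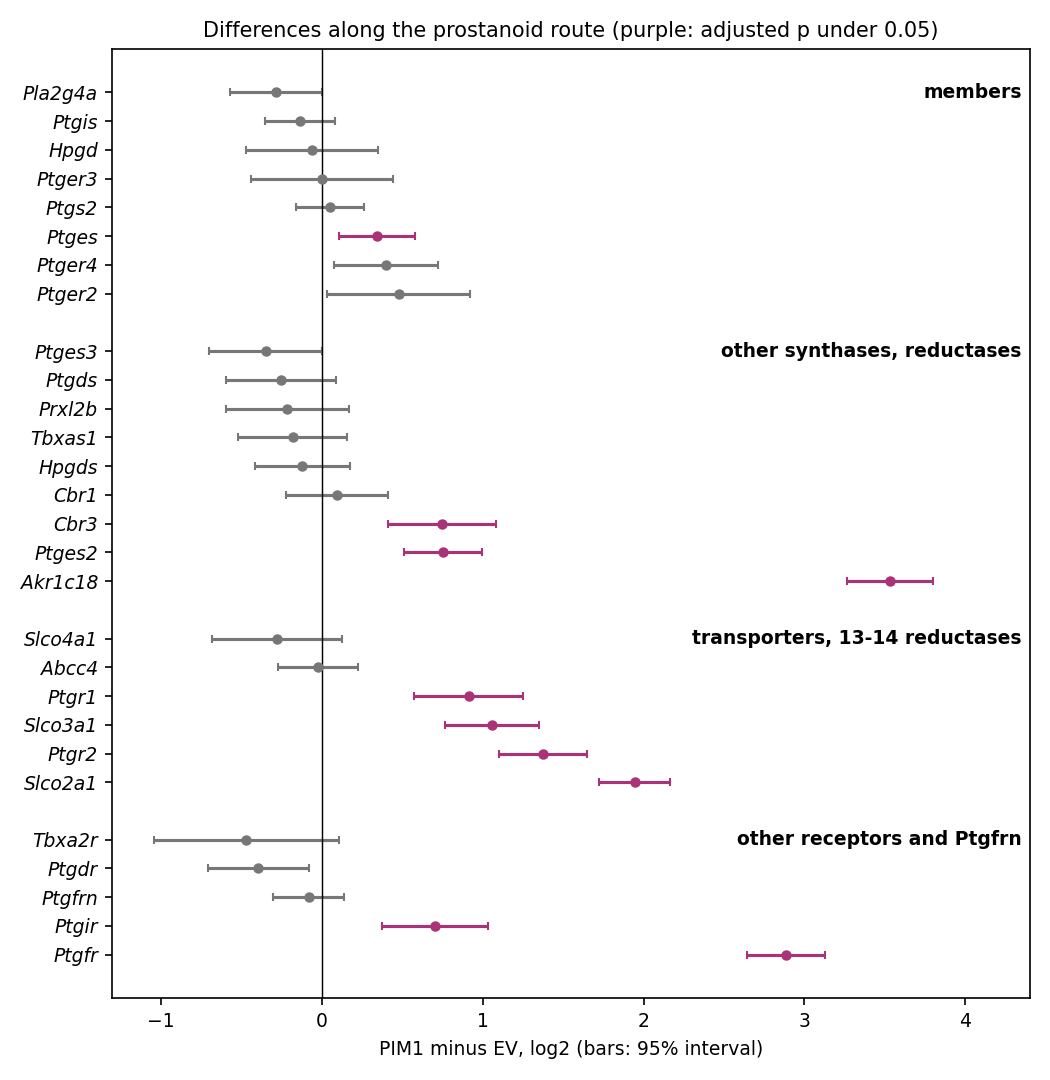
Difference PIM1 minus EV on the log2 scale, with its 95% interval, for the 8 members and for the other prostanoid synthases, transporters and reductases, and receptors; purple marks adjusted p under 0.05. The intervals of the members lie between -0.57 and 0.92, and Akr1c18, Ptgfr and Slco2a1 lie furthest to the right at 3.53, 2.89 and 1.94.

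Other phospholipases A2 and arachidonate-handling genes moved both ways, with 6 of 23 higher and 3 lower and a median difference of -0.05. Pla2g7, a secreted enzyme that hydrolyses platelet-activating factor, fell from 7.89 ± 0.020 to 5.06 ± 0.14, a 7.07-fold difference (limma adjusted p = 1.27e-06). Anxa1, the phospholipase-inhibiting protein annexin A1, fell by 0.92 from 10.79 ± 0.051 to 9.86 ± 0.046 (limma adjusted p = 2.07e-04). Pla2g15, a lysosomal phospholipase, rose by 1.19 from 6.85 ± 0.041 to 8.04 ± 0.081 (limma adjusted p = 6.04e-05), and a dimmer second probe set of it differed by 0.29 and did not pass. Leukotriene genes, which draw on the same arachidonic acid, were mostly dim, with 1 of 15 higher and 1 lower and a median difference of -0.07. Alox5ap, which presents arachidonic acid to the lipoxygenase, rose by 1.09 on the probe set used and differed by -0.02 on the second, so its probe sets disagree. The probe set used averaged 3.45 in EV, below the 3.62 of the second, and 4.54 in PIM1, above 3.60. It was therefore brighter over the 6 arrays only through PIM1, and the higher call of this list rests on it. Alox5 fell by 0.40 (limma adjusted p = 0.0270), and that call was lost in 9 of 14 alternatives. Ltc4s, the leukotriene C synthase gene, differed by -0.54 and did not pass (limma adjusted p = 0.0962).

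Downstream of the Gs-coupled receptors, 4 of 21 measured genes of the cyclic AMP relay were higher and 1 was lower, with a median difference of 0.10. Of the 4 regulatory subunit genes of protein kinase A, Prkar1a (0.18) and Prkar1b (-0.13) did not pass, and the other two were called in opposite directions. Prkar2b rose by 1.29 from 7.67 ± 0.066 to 8.95 ± 0.074 (limma adjusted p = 4.30e-05), whereas Prkar2a fell by 0.72 from 8.26 ± 0.13 to 7.54 ± 0.085 (limma adjusted p = 0.00182). Of the catalytic subunit genes, Prkacb rose by 0.50 (limma adjusted p = 0.0154). Prkaca rose by 0.53 on its brighter probe set, and a second, dimmer probe set differed by -0.13 and did not pass. With the mean of both probe sets the Prkaca difference was 0.20 (adjusted p = 0.209).

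Genes that cyclic AMP can induce, with the phosphodiesterases that degrade it, did not move in 1 direction. Of 17 measured, 5 were higher and 4 lower, with a median difference of 0.13. The list pools both kinds of gene, and both groups grew with cholera toxin, so these counts are no measure of cyclic AMP output. Rgs2, an inhibitor of G protein signalling, rose by 2.08 from 6.57 ± 0.28 to 8.66 ± 0.033 (limma adjusted p = 2.65e-05), and a dim second probe set differed by -0.13 and did not pass. Dusp1, a phosphatase of mitogen-activated protein kinases, rose by 1.15 (limma adjusted p = 7.50e-05). Nr4a2, an orphan nuclear receptor gene that cyclic AMP induces, fell by 0.94 from 7.46 ± 0.071 to 6.52 ± 0.15 (limma adjusted p = 5.20e-04).

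RNA-binding and RNA-modifying proteins set how long inflammatory messages such as that of Ptgs2 last, some through AU-rich elements and others through stem-loops or the tail of the message. Of 12 such genes 2 were higher and 3 lower, with a median difference of -0.10. Zc3h12a, an endonuclease that degrades inflammatory messages, rose by 2.21 from 4.67 ± 0.14 to 6.87 ± 0.11 (limma adjusted p = 6.08e-06). Zfp36, tristetraprolin, which speeds the decay of AU-rich messages, rose by 1.09 from 5.76 ± 0.046 to 6.85 ± 0.11 (limma adjusted p = 1.28e-04). Tial1, a translational repressor, fell by 0.63 from 7.25 ± 0.054 to 6.63 ± 0.018 (limma adjusted p = 0.00152). An array signal is a level and cannot separate synthesis of a message from its decay.

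Some prostaglandins and other lipids bind peroxisome proliferator-activated receptors (PPARs). Of 8 genes for these receptors, their partner and their targets, 6 were higher and 1 was lower, with a median difference of 0.78. Fabp4, a fatty acid binding protein, rose from 2.83 ± 0.26 to 6.97 ± 0.14, a 17.7-fold difference from a dim EV signal (limma adjusted p = 1.09e-06). Angptl4, a secreted lipase inhibitor that PPARs and low oxygen both induce, rose by 2.54 (limma adjusted p = 6.98e-06). Ppard, a receptor of this family, rose by 0.93 from 6.85 ± 0.26 to 7.79 ± 0.074 (limma adjusted p = 0.00176). Across all 9 lists, 46 of 116 genes were called (39.7%, against 27.0% of all genes), 33 higher and 13 lower, with a median difference of -0.02 (-0.05 for all genes). The lists were chosen with earlier results of these data known, so their shares cannot be read as an excess over all genes.

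**Figure D3:**
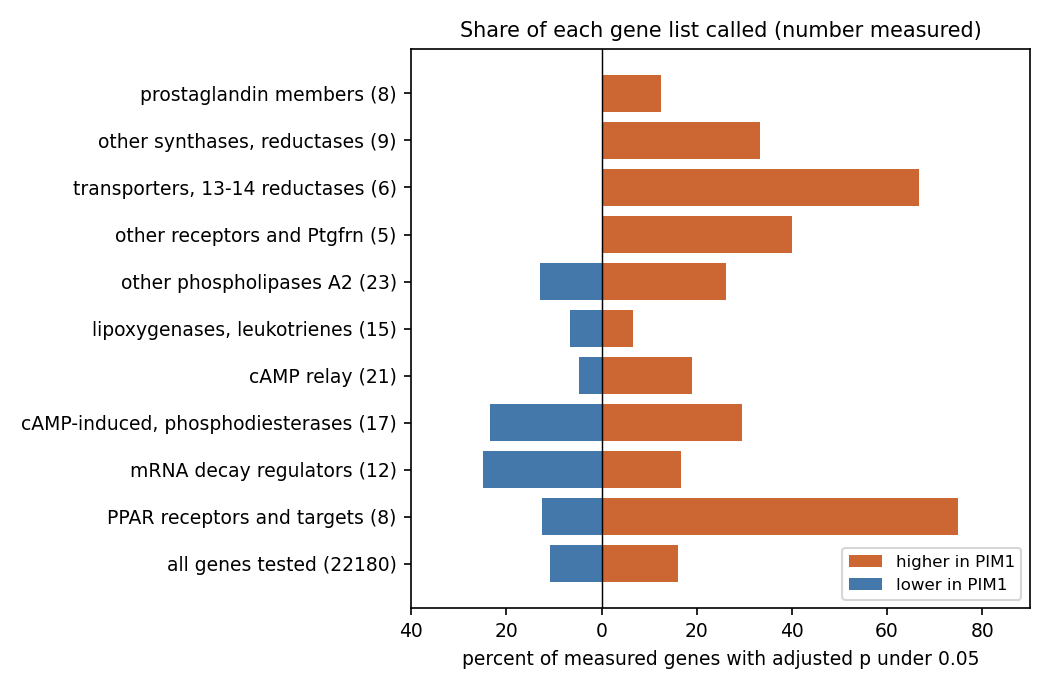
Percent of the measured genes of each list with adjusted p under 0.05, higher in PIM1 to the right in orange and lower to the left in blue, with the number measured in brackets. The members stand at 12.5% higher (1 of 8) and 0 lower, beside 16.1% higher and 10.9% lower of all 22180 genes. So few members cannot show a difference from the shares of all genes.

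The 3 genes whose profiles lay nearest to that of Ptges over the 6 arrays, after each gene's EV mean was subtracted, were Ppbp, a platelet chemokine gene, Snai2, a transcription factor gene of epithelial-mesenchymal transition, and Dnah10, an axonemal dynein gene. Their Euclidean distances from Ptges were 0.0657, 0.0673 and 0.0808 on the log2 scale. Genes chosen in this way must differ by about as much as Ptges, and their differences were 0.34, 0.34 and 0.36.

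Markers of other cells that make or respond to prostaglandins were read beside these values. Of 11 macrophage and leukocyte markers 1 was higher and 1 lower, and their summed signal on a log2 scale was 7.40 to 7.56 in EV and 8.13 to 8.39 in PIM1. Their differences ran from -1.35 to 2.20 with a median of -0.20, so most of them did not rise with the sum. The pan-leukocyte marker Ptprc read 1.73 to 2.24 on all arrays, far below the array medians, and the myeloid Cd14 accounted for the higher call. Of 10 endothelial markers 0 passed limma's test (0 higher and 1 lower at an unadjusted p under 0.05), with summed signals of 6.21 to 6.30 and 6.01 to 6.26. Smooth muscle markers counted 2 higher and 3 lower of 10, with summed signals of 10.03 to 10.15 and 9.64 to 9.68. The part of these cell types in the results was not tested.

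**Figure D4:**
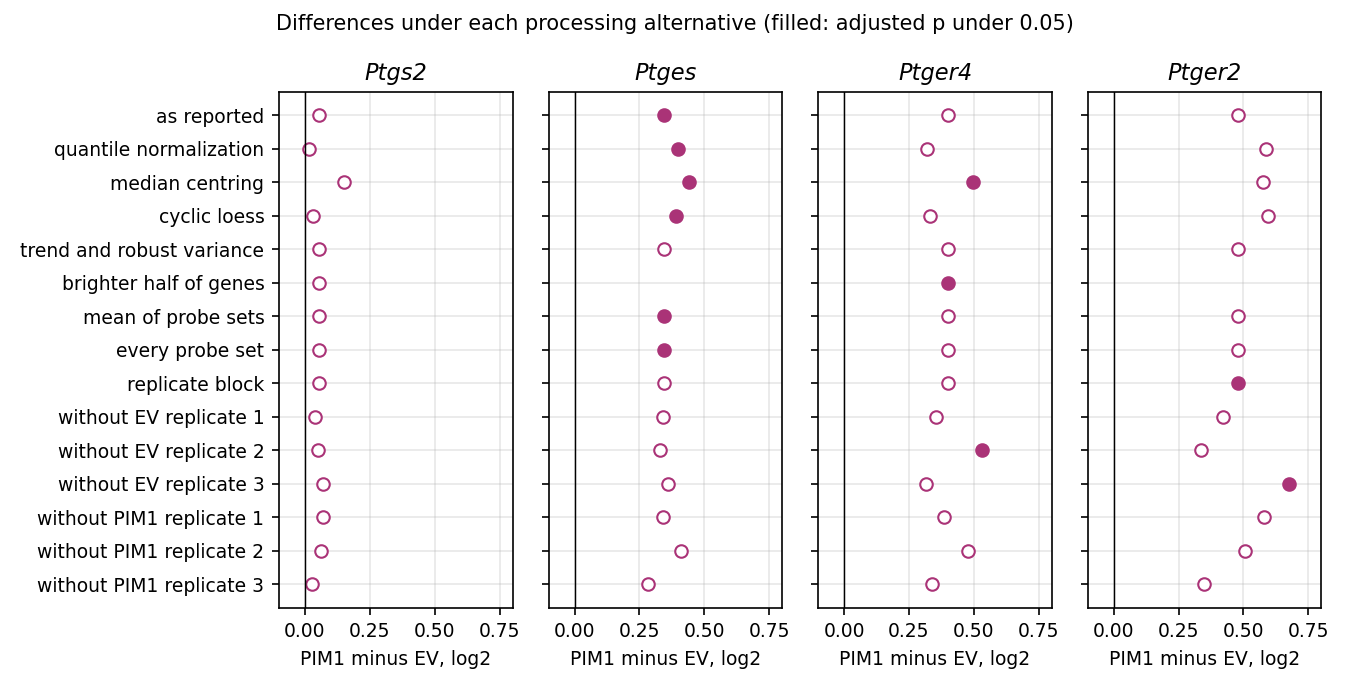
Difference PIM1 minus EV on the log2 scale for Ptgs2, Ptges, Ptger4 and Ptger2 as reported and under each processing alternative; filled points have adjusted p under 0.05. Ptgs2 stays between 0.01 and 0.15 with no filled point, whereas filled points come and go for Ptges, Ptger4 and Ptger2.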

How the data were processed

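RNA of 6 samples was measured on Affymetrix whole-transcript mouse arrays. The deposited values, 1 per probe set and array, were taken as log2 signals from their range of 0.34 to 13.05. The sources used here do not give the log base, background correction, summarization or normalization, and Affymetrix Expression Console is named, without a version, in the submitters' processing notes. Precision is limited by the number of arrays, 3 a group. Groups came from the sample titles. Of 41345 probe sets, 23521 had 1 gene symbol, 1814 several and 16010 none. Where a gene had several probe sets (1082 genes), the brightest by mean over all 6 arrays was used, which can favour a probe set that is high in 1 group. Symbols of all 8 member probe sets matched RefSeq (GRCm38.p6) by Entrez identifier, and RefSeq gave the promoter sequences.

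PIM1 was set against EV by limma 3.58.1 (R 4.3.3; lmFit, then eBayes; two-sided), with Benjamini-Hochberg adjustment over 22180 genes and a threshold of 0.05. The fit was tested on simulated data. Lists were described by counts and medians. All members were named, with the up to 3 genes of smallest p in each list, Pim1 and the 3 nearest profiles. Ptgds, Hpgds, Tbxas1, Ptgr1, Abcc4, Ptgfrn, Prkar1a, Prkar1b, Prkacb and single markers were named after their values were seen. Members and lists were chosen with earlier results of these data known. Replicate numbers were not used to pair the arrays in this fit, and the alternatives are given at the end.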

Additional observations from a re-analysis of the deposited data

How the results depend on the processing

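Ptgs2, Pla2g4a and Ptgis kept their direction and were not called in any alternative in which they were tested. Ptgs2 lay between 0.01 and 0.15, Pla2g4a between -0.37 and -0.16, and Ptgis between -0.17 and -0.04. The Ptgis difference shrank to -0.04 after quantile normalization, after median centring and after cyclic loess. The Ptges rise was called in 5 of 13 alternatives and kept its direction in all 13 (0.28 to 0.44, adjusted p 0.0167 to 0.117). The count of members called higher was 2 with each array centred on its median (Ptges and Ptger4), 0 with a trended, robust variance, and 0 to 1 without single arrays, where the 1 was Ptger4 or Ptger2. Hpgd changed sign to 0.070 after quantile normalization, 0.038 after median centring and 0.078 after cyclic loess, and ran from -0.215 to 0.0820 without single arrays, among them 0.05 without EV replicate 2 and 0.08 without PIM1 replicate 3. Ptger3 ran from -0.22 to 0.18 without single arrays, with -0.22 without EV replicate 2 and -0.05 without PIM1 replicate 3. The cause was not tested. Among all genes, 1558 were called lower after median centring and 1463 to 2224 without single arrays, against 2420, and the share of calls that were higher was 59.6% as reported and 73.5% after median centring. With the replicate number as a block Ptges was not called (adjusted p = 0.0683) and Ptger2 was (adjusted p = 0.0339), and the number of members called stayed at 1. Deviations of same-numbered arrays from their group means correlated at 0.056, -0.031 and 0.0087 over all genes. Such low values cannot show whether these arrays shared a culture or batch, which the labels do not give. No other gene named by the rule changed sign. The calls of Ppbp, Snai2 and Dnah10 were lost in 9 of 14, 10 of 14 and 8 of 13 alternatives. With the mean of a gene's probe sets the rises of Rgs2, Pla2g15 and Alox5ap were 0.98, 0.74 and 0.53. Pla2g4a, Ptges, Ptgis, Hpgd, Ptger2 and Ptger3 were not among the brighter 11090 genes and have no value there. Dim signals limit what falls could be seen.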

Other observations

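Ptgs2os, a long non-coding RNA gene, lies next to Ptgs2 on chromosome 1 with 0 annotated genes between them, and it was looked at after its value was seen. It gave EV signals of 5.21, 5.19 and 5.48 and PIM1 signals of 4.88, 4.96 and 5.16. The PIM1 values lay below the EV values, and the difference of -0.29 (95% interval -0.58 to -0.0052) did not pass (limma adjusted p = 0.125). Pla2g4a lies on the same chromosome with 2 annotated genes between it and Ptgs2.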
